A study of Homo sapiens with 6 samples.

Results

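The 35 genes described here encode chaperones and folding enzymes of the endoplasmic reticulum (ER), the sensors of the unfolded protein response, the machinery of ER-associated degradation (ERAD) and subunits of the channel through which new proteins enter the ER. They were taken by gene symbol from a deposited table of 60623 genes, in which all 35 had a row. A mean of at least 1 FPKM over the 6 libraries was required for testing. Of the 35 members, 33 reached it, and 10865 genes in all. FPKM is fragments per kilobase of transcript, scaled by the authors with a total per library that differed from the sum of its listed reads. RNA came from LX2 cells, an established line made from human hepatic stellate cells, the liver cells that lay down collagen in fibrosis. The 3 siSHMT2 libraries were made from cells transfected for 36 h with an siRNA against SHMT2, and the 3 siNC libraries from cells transfected for the same time with a control siRNA. Both groups carried the wild-type genotype per the labels and were kept in medium with 2% fetal bovine serum. No siRNA sequence and no second siRNA against SHMT2 is given in the sources used here, and all libraries come from a single line. Whether each library was its own culture is not stated in the labels. The p-values therefore reflect spread among these 6 libraries alone, and that spread may be technical.

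Secretory and membrane proteins enter the ER through the SEC61 channel, lose their signal peptide, receive glycans and fold with the help of BiP (HSPA5), lectin chaperones and disulfide isomerases. When unfolded protein builds up, the sensors IRE1 (ERN1), PERK (EIF2AK3) and ATF6 start the unfolded protein response, in which spliced XBP1, ATF4 and cleaved ATF6 raise transcription of chaperone and ERAD genes. ERAD pulls proteins that fail to fold back into the cytosol for the proteasome. Stellate cells secrete large amounts of procollagen, which needs the collagen chaperone HSP47 (SERPINH1) and prolyl hydroxylase, of which P4HB is a subunit. SHMT2 is the mitochondrial serine hydroxymethyltransferase of one-carbon metabolism.

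SHMT2 itself stood at 2.25, 2.10 and 2.42 FPKM in the siSHMT2 libraries, against 40.8, 56.3 and 45.1 FPKM in the siNC libraries. Its siSHMT2 mean was 4.77% of the siNC mean (log2 difference -3.88, SE 0.132, limma adjusted p = 2.08e-05), and an exact two-sided permutation test over the 6 libraries gave p = 0.1, the lowest that 3 against 3 can reach. The FPKM values gave back 14722344 to 15669139 whole reads per library. The siNC libraries lay further apart than the siSHMT2 libraries, with a median SD over all tested genes of 0.105 on the log2 scale in siSHMT2 and 0.191 in siNC, and of 0.0831 and 0.151 over the tested members. Stellate and fibroblast-like markers were present, with 7 of 10 tested and 1 called, VIM (vimentin), which was lower. Vimentin averaged 501 ± 27.0 FPKM in siSHMT2 and 823 ± 97.3 FPKM in siNC (SD, n = 3 each, log2 difference -0.71, limma adjusted p = 0.0191). Its call was lost without siSHMT2 replicate 1, 2 or 3 (0.0765, 0.0949 and 0.0878, log2 differences -0.75, -0.67 and -0.71) or siNC replicate 3 (0.0509, -0.73). It was also lost with no filter on low values (0.114) and with the replicate number as a block in the fit (0.0745). The 10 markers summed to 885 to 981 FPKM in the siSHMT2 libraries and 1226 to 1338 FPKM in the siNC libraries, a gap that came mostly from VIM. The other tested markers were not called, at log2 differences of -0.20 to 0.22. The part of this gap in the differences below was not tested. COL1A1 averaged 206 FPKM in siSHMT2 and 221 in siNC, but ACTA2 and DES lay below the filter and LRAT was listed at 0. Markers of hepatocytes, endothelial cells and macrophages summed to at most 1.36 FPKM in any library, and ALB, TTR, CDH5 and PTPRC were at or near 0. Those of cholangiocytes summed to 1.75 to 2.41 FPKM in siSHMT2 and 1.72 to 2.94 FPKM in siNC, mostly from KRT7, which was not called, while EPCAM was near 0 and CFTR listed at 0.

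Some promoters of the set carry sequence elements through which the unfolded protein response acts, and those of 3 members are shown beside the values that follow. Each line gives the 300 bases from 250 before to 50 after the RefSeq transcription start (GRCh38.p14), read on the gene's strand, at chr9:125241294-125241593 on the minus strand for HSPA5, chr12:103930160-103930459 on the plus strand for HSP90B1 and chr16:56931892-56932191 on the plus strand for HERPUD1. Capitals mark the ER stress response element (ERSE, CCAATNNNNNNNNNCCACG) in HSPA5 and HSP90B1, which holds it once on each strand, and the related ERSE-II (ATTGGNCCACG) in HERPUD1.
HSPA5: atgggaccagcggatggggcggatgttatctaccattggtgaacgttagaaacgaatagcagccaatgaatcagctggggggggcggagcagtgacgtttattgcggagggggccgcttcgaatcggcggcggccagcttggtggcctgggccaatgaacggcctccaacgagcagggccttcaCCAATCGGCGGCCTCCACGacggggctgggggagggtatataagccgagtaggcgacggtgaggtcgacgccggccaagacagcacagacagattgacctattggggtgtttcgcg
HSP90B1: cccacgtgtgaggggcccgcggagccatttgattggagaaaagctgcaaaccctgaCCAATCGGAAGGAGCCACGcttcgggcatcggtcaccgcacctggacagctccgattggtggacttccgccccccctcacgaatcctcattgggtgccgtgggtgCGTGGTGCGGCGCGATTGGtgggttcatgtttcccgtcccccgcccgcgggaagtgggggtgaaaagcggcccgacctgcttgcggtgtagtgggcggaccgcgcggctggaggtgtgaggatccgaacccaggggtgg
HERPUD1: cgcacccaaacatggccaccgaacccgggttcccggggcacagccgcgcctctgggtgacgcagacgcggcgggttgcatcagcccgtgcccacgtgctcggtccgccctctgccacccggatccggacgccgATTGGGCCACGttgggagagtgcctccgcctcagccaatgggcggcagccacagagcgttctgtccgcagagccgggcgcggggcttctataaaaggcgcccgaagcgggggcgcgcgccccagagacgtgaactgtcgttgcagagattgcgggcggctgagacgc
Searched on both strands, ERSE occurred in 27 of 35116 such windows (0.0769%) and ERSE-II in 19 (0.0541%). By gene symbol, some with several windows, ERSE occurred in 25 of 27305 (0.0916%) and ERSE-II in 19 (0.0696%). Among the 33 members with a window, 7 held ERSE (CALR, CANX, CRELD2, HSP90B1, HSPA5, PDIA6 and XBP1) and 3 held ERSE-II (HERPUD1, HYOU1 and SDF2L1). The XBP1-binding element UPRE (TGACGTGG) occurred in 256 windows (0.729%) and 253 gene symbols (0.927%). HYOU1, SSR3 and VCP were among them, and in HYOU1 the UPRE overlapped an ERSE-II. PDIA3 and DERL1 had no window in the RefSeq table. A match describes the letters and is not evidence of binding.

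Over the whole set, fewer transcripts of a few named genes were found in siSHMT2 cells, and the sensors of the pathway were not called in either direction. By limma on log2(FPKM + 1), with Benjamini-Hochberg adjustment over all 10865 genes and a threshold of 0.05, 7 of the 33 tested members were lower in siSHMT2 (SSR1, HERPUD1, SSR3, DNAJB9, HSP90B1, SPCS2 and PDIA4), a share of 21.2% beside 9.85% of all genes tested. SERPINH1 alone was higher, 1 of 33 or 3.03%, beside 6.07% of all genes. In 11 members every siSHMT2 library lay below every siNC library (18.6% of all genes did so), and in 2, SERPINH1 and OS9, every siSHMT2 library lay above (17.9% of all genes). Of the 33, 21 had a negative log2 difference (63.6%, beside 47.1% of all genes tested). The median of the 33 was -0.07, against 0.02 for all genes tested. Scaling moved both medians: the members' median was 0.01 after rescaling to TPM, -0.00068 with FPKM from plain read sums and -0.00054 with voom (limma's method for read counts) on the recovered reads, where the median of all genes was 0.11, 0.08 and 0.10. Relative to all genes the members' median was -0.09 as deposited and -0.09, -0.08 and -0.10 under these scalings. The count of members called lower was 3, 4 and 3 without siSHMT2 replicate 1, 2 or 3, and 8, 7 and 7 without siNC replicate 1, 2 or 3. The share of all genes called lower moved as well, to 4.60%, 5.45% and 5.03% without the siSHMT2 replicates and 10.3%, 10.4% and 7.24% without the siNC replicates, in the same order. Bulk RNA cannot tell fewer expressing cells from less RNA per cell.

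**Figure D1:**
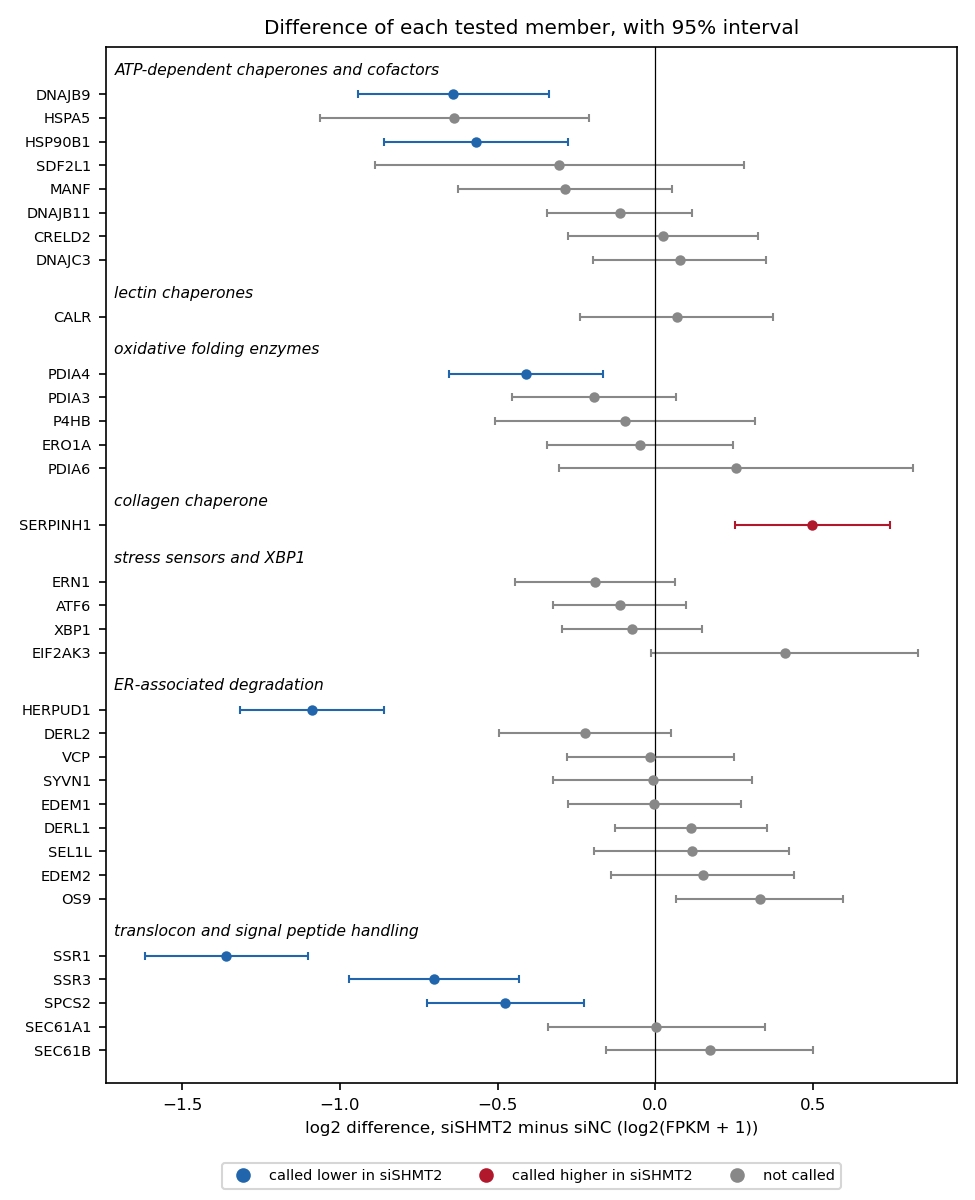
Log2 difference (siSHMT2 minus siNC, on log2(FPKM + 1)) of each of the 33 tested members by role, with the 95% interval from limma as bars. Blue points were called lower in siSHMT2 (7 members, SSR1 and HERPUD1 farthest from 0), the red point higher (SERPINH1), and grey points were not called.

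Among the chaperones that work with ATP and their partners, HSP90B1 and DNAJB9 fell in siSHMT2 and HSPA5 lay lower without passing the adjusted threshold. HSPA5 (ENSG00000044574, chromosome 9, 125234853 to 125241343) encodes BiP, the Hsp70 of the ER lumen and the classic reporter of ER stress. It stood at 135, 142 and 129.6 FPKM in the siSHMT2 libraries, against 207, 272 and 167 FPKM in the siNC libraries, so the groups did not overlap, and the siNC values spread widely. The log2 difference was -0.64 (95% interval -1.06 to -0.21, limma adjusted p = 0.0544). HSPA5 was called lower at a mean FPKM of at least 5 (limma adjusted p = 0.0473) and with voom on recovered reads (0.0360). Array weights, which give less weight to libraries that deviate more, also called it (0.0290, log2 difference -0.39), as did leaving out siNC replicate 3 (0.0296, -0.81). It was not called at a pseudocount of 0.1 (0.0550), with no filter (0.166), after rescaling to TPM (0.0789) or with plain read sums (0.0582). Nor was HSPA5 called with the replicate number as a block (0.0754) or without siSHMT2 replicate 1, 2 or 3 (0.168, 0.131 and 0.171). Without siNC replicate 1 or 2 it was also not called (0.0700 and 0.0666, log2 differences -0.65 and -0.45).

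HSP90B1 (ENSG00000166598, chromosome 12, 103930107 to 103953645) encodes GRP94, the Hsp90 of the ER, which folds integrins and Toll-like receptors. Its level was 123, 121 and 123 FPKM in the siSHMT2 libraries, against 175, 205 and 167 FPKM in the siNC libraries. The siSHMT2 libraries nearly coincided and all lay below the siNC libraries, and the siSHMT2 mean was 0.670 times the siNC mean. HSP90B1 fell by 0.57 on the log2 scale (SE 0.126, limma adjusted p = 0.0215). The call was lost with no filter on low values (limma adjusted p = 0.0527) or without siSHMT2 replicate 1, 2 or 3 (0.105, 0.0935 and 0.0949), with log2 differences of -0.57, -0.57, -0.56 and -0.57 in that order. It was also lost with the replicate number as a block (0.0745).

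DNAJB9 (ENSG00000128590, chromosome 7, 108569867 to 108574850) encodes ERdj4, a J-domain cochaperone of BiP that also acts in ERAD. Its FPKM was 4.69, 6.46 and 5.58 in the siSHMT2 libraries (191, 272 and 224 reads), against 10.4, 8.21 and 9.11 in the siNC libraries (460, 302 and 364 reads). The groups did not overlap, with siSHMT2 replicate 2 and siNC replicate 2 nearest each other. DNAJB9 fell by 0.64 (SE 0.131, limma adjusted p = 0.0161). The call was lost with no filter on low values (limma adjusted p = 0.0650), after rescaling to TPM (0.0929), with FPKM from plain read sums (0.0550), with voom (0.0519) and without siSHMT2 replicate 1 or 3 (0.0720 and 0.0595), at log2 differences of -0.65 to -0.54. It was also lost with the replicate number as a block (0.0538).

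The other BiP partners showed no called difference. DNAJB11, DNAJC3 and CRELD2 differed by -0.11, 0.08 and 0.02 on the log2 scale. The first is ERdj3, a J-domain protein that hands substrates to BiP, the second is the cochaperone p58IPK and the third a secreted-pathway protein induced by ER stress. SDF2L1, a partner of ERdj3, had 111, 102 and 129 FPKM in the siSHMT2 libraries, against 99.8, 207 and 133 FPKM in the siNC libraries, so siNC held both the lowest and the highest value (log2 difference -0.30, limma adjusted p = 0.468). Its difference was -0.02 without siNC replicate 2 and -0.55 without siNC replicate 1. MANF, an ER protein that binds BiP and is secreted under stress, had 49.6, 49.2 and 51.2 FPKM in the siSHMT2 libraries, against 50.02, 72.3 and 63.5 FPKM in the siNC libraries. It was not called (log2 difference -0.29, limma adjusted p = 0.237), but was called lower without siNC replicate 1 (0.0360, log2 difference -0.43) and with array weights (0.0141). Without siNC replicate 2 the difference was -0.17 (0.410). HYOU1, the nucleotide exchange factor of BiP, was listed at 0 in 5 libraries and at 0.00823 FPKM (1 read) in siNC replicate 3, and this row is given as listed and not read as absence.

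**Figure D2:**
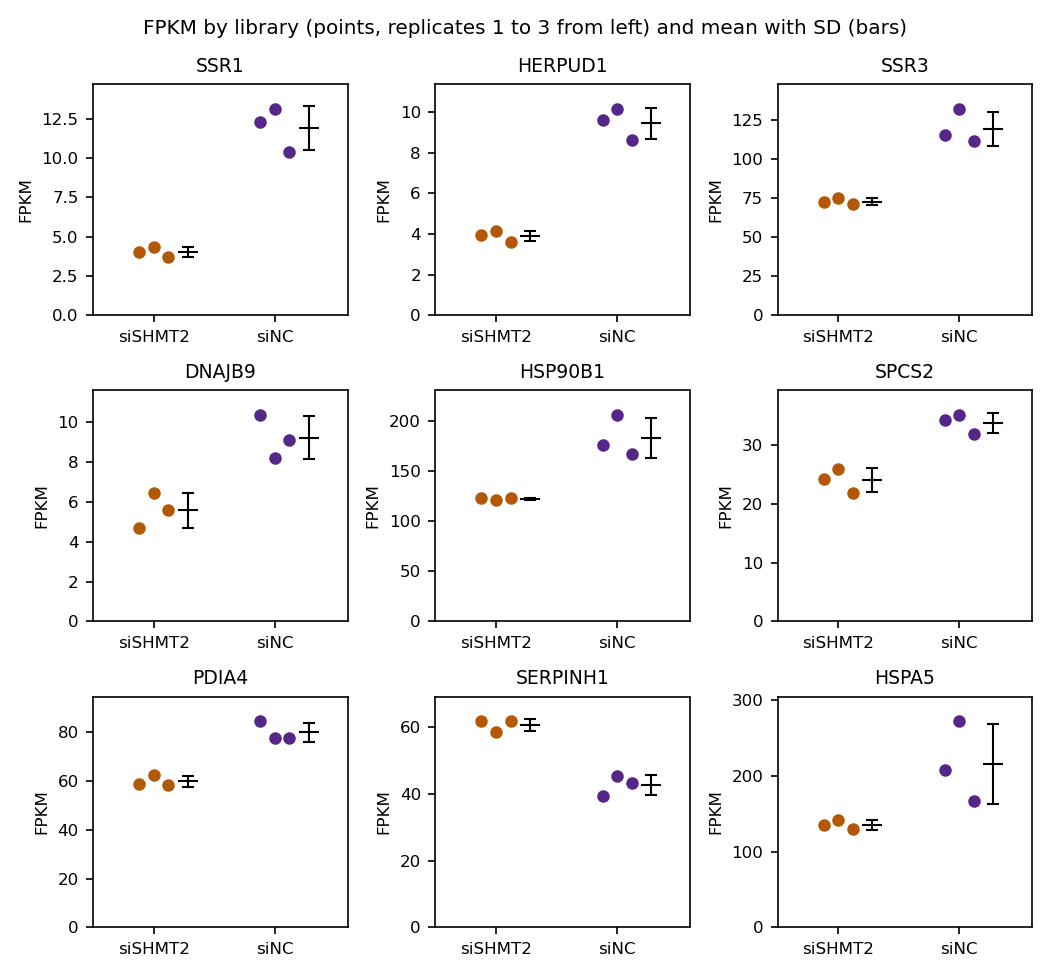
FPKM of the 8 called members and HSPA5 in each library (points, replicates 1 to 3 from left, siSHMT2 left of siNC), with the mean and SD beside them (bars, n = 3 each) and the axis starting at 0. In all 9 panels the points of the groups do not overlap, which also holds for 36.4% of all genes tested. The called members were picked by their difference, so this separation is not a further result. SERPINH1 is the panel in which siSHMT2 lies above.

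The 1 tested lectin chaperone was not called, and 1 of 5 oxidative folding enzymes was called, lower, beside 9.85% of all genes. CALR, calreticulin, which holds glycoproteins during folding, was the most abundant member per length, with 356, 362 and 367 FPKM in the siSHMT2 libraries, against 343, 317 and 376 FPKM in the siNC libraries (log2 difference 0.07, 95% interval -0.24 to 0.37). Its membrane-bound partner CANX was listed at only 0.00910 to 0.0347 FPKM in siSHMT2 and 0.00914 to 0.0493 in siNC, from 1 to 6 reads. Calnexin is made by practically all cells, so this row is given as listed and not read as absence. PDIA4, the isomerase ERp72, was the 1 of 5 oxidative folding members called, with 58.7, 62.5 and 58.2 FPKM in the siSHMT2 libraries, against 84.3, 77.6 and 77.6 FPKM in the siNC libraries. The groups lay apart with tight spread. PDIA4 (ENSG00000155660, chromosome 7, 149003062 to 149028662) fell by 0.41 (SE 0.106, limma adjusted p = 0.0367), the smallest of the called differences. It was not called after rescaling to TPM (limma adjusted p = 0.180), with FPKM from plain read sums (0.103), with voom (0.0909), or without siSHMT2 replicate 1, 2 or 3 or siNC replicate 3 (0.175, 0.108, 0.161 and 0.0691), at log2 differences of -0.44 to -0.32. Nor was PDIA4 called with the replicate number as a block (0.119).

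PDIA3 (ERp57, which works with the lectin chaperones) was lower in each siSHMT2 library than in any siNC library without being called, at 119, 123 and 111 FPKM in siSHMT2, against 137, 138 and 129 FPKM in siNC (log2 difference -0.19, limma adjusted p = 0.300). P4HB, the founding disulfide isomerase and the beta subunit of prolyl 4-hydroxylase, averaged 173 ± 5.06 FPKM in siSHMT2 and 188 ± 46.3 FPKM in siNC (SD, n = 3 each), where siNC replicate 2 alone reached 242. Its log2 difference was -0.10, and 0.10 without that library. PDIA6, another isomerase, had its highest value in siSHMT2 replicate 2 (24.8 FPKM) and its lowest in siNC replicate 2 (11.0 FPKM), with a log2 difference of 0.26, and -0.01 without siNC replicate 2. ERO1A, the oxidase that recharges the isomerases, differed by -0.05.

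SERPINH1 (ENSG00000149257, chromosome 11, 75562056 to 75572783) encodes HSP47, the chaperone that binds the procollagen triple helix in the ER. It was the only member called higher, with 61.8, 58.5 and 61.8 FPKM in the siSHMT2 libraries, against 39.5, 45.5 and 43.2 FPKM in the siNC libraries. The lowest siSHMT2 library stood well above the highest siNC library, and the siSHMT2 mean was 1.42 times the siNC mean. SERPINH1 rose by 0.50 on the log2 scale (SE 0.106, limma adjusted p = 0.0185). Leaving out siSHMT2 replicate 1, 2 or 3 ended the call (limma adjusted p = 0.106, 0.0675 and 0.0921), with log2 differences of 0.49, 0.52 and 0.49. The call was also lost with the replicate number as a block (0.0728).

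Among the 3 stress sensors and XBP1, 0 of 4 were called by limma and 0 had an unadjusted limma p under 0.05, beside 15.9% and 30.3% of all genes. By voom, 0 of the 4 were called. ATF6, the membrane-bound transcription factor that is cleaved under stress, had 5.36, 5.31 and 4.74 FPKM in the siSHMT2 libraries, against 5.60, 5.42 and 5.87 FPKM in the siNC libraries (log2 difference -0.11, limma adjusted p = 0.458). ERN1, which encodes the kinase and RNase IRE1, had 1.03, 0.955 and 0.984 FPKM in the siSHMT2 libraries, against 1.38, 1.22 and 1.21 FPKM in the siNC libraries (log2 difference -0.19, limma adjusted p = 0.294). In both genes every siSHMT2 library lay below every siNC library, as in 18.6% of all genes tested. EIF2AK3, which encodes the eIF2alpha kinase PERK, had 1.59, 1.68 and 0.937 FPKM in the siSHMT2 libraries (139, 152 and 81 reads), against 1.18, 0.593 and 0.639 FPKM in the siNC libraries (113, 47 and 55 reads). Its groups overlapped through siSHMT2 replicate 3 and siNC replicate 1 (log2 difference 0.41, 95% interval -0.01 to 0.83, limma adjusted p = 0.177), and array weights called it higher (0.0129, log2 difference 0.56). Its difference was larger, without a call, at a pseudocount of 0.1 (0.75), after rescaling to TPM (0.67) and with voom (0.89), and that of ERN1 was -0.33 at a pseudocount of 0.1. XBP1, the transcription factor made active by IRE1 splicing, had 15.3, 17.0 and 15.4 FPKM in the siSHMT2 libraries, against 16.2, 17.6 and 16.6 FPKM in the siNC libraries (log2 difference -0.07, 95% interval -0.30 to 0.15). A gene total does not separate spliced from unspliced XBP1, and cleavage of ATF6 or phosphorylation of PERK is not seen in RNA.

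Genes downstream of these sensors were counted in further pathway lists. Of 9 tested genes of the PERK arm and integrated stress response, 0 were called by limma, beside 15.9% of all genes. An unadjusted limma p under 0.05 was reached by 3 (ATF4, CHAC1 and EIF2S1), beside 30.3% of all genes tested. By voom 1, CHAC1, was called. ATF4, the transcription factor translated when PERK is active, had 134, 132 and 138 FPKM in the siSHMT2 libraries, against 157, 222 and 176 FPKM in the siNC libraries, and the groups did not overlap (log2 difference -0.44, limma adjusted p = 0.0897). CHAC1, a glutathione-degrading target of ATF4, averaged 9.27 ± 1.73 FPKM in siSHMT2 and 16.6 ± 4.70 FPKM in siNC (SD, n = 3 each, log2 difference -0.76, limma adjusted p = 0.0555). DDIT3, which encodes the proapoptotic factor CHOP, and PPP1R15A, the phosphatase subunit GADD34, differed by -0.29 and -0.31 with overlapping groups. Without siNC replicate 1, ATF4, CHAC1 and DDIT3 were called lower (limma adjusted p = 0.0333, 0.00709 and 0.0319, log2 differences -0.55, -0.997 and -0.52). CHAC1 was also called lower at a mean FPKM of at least 5 (0.0427), after rescaling to TPM (0.0325), with FPKM from plain read sums (0.0395), with voom (0.0348) and with array weights (0.00196), and ATF4 with array weights (0.00696). Of the pseudokinase TRIB3, an ATF4 target, the log2 difference was 0.31, and it was called higher without siNC replicate 2 (0.0370, log2 difference 0.50).

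For ATF6 and IRE1 processing, 1 of 7 tested genes was called by limma, beside 15.9% of all genes in either direction. By voom 2 were called (CREB3L2 and TRAF2, an adaptor of IRE1). CREB3L2, an ATF6-related transcription factor that raises secretory capacity, rose by 0.46 (limma adjusted p = 0.0354), a call lost without siSHMT2 replicate 1, 2 or 3 (0.125, 0.128 and 0.0884) or siNC replicate 2 or 3 (0.0543 and 0.0794), with no filter on low values (0.106) and after rescaling to TPM (0.0782), at log2 differences of 0.36 to 0.60. The proteases that release ATF6 from the Golgi membrane, MBTPS1 and MBTPS2, differed by -0.14 and -0.35 (limma adjusted p = 0.541 and 0.0740). ATF6B, the paralog of ATF6, was listed at 0.0166 to 0.0516 FPKM in siSHMT2 and at 0 to 0.0380 in siNC, which is likewise not read as absence.

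**Figure D3:**
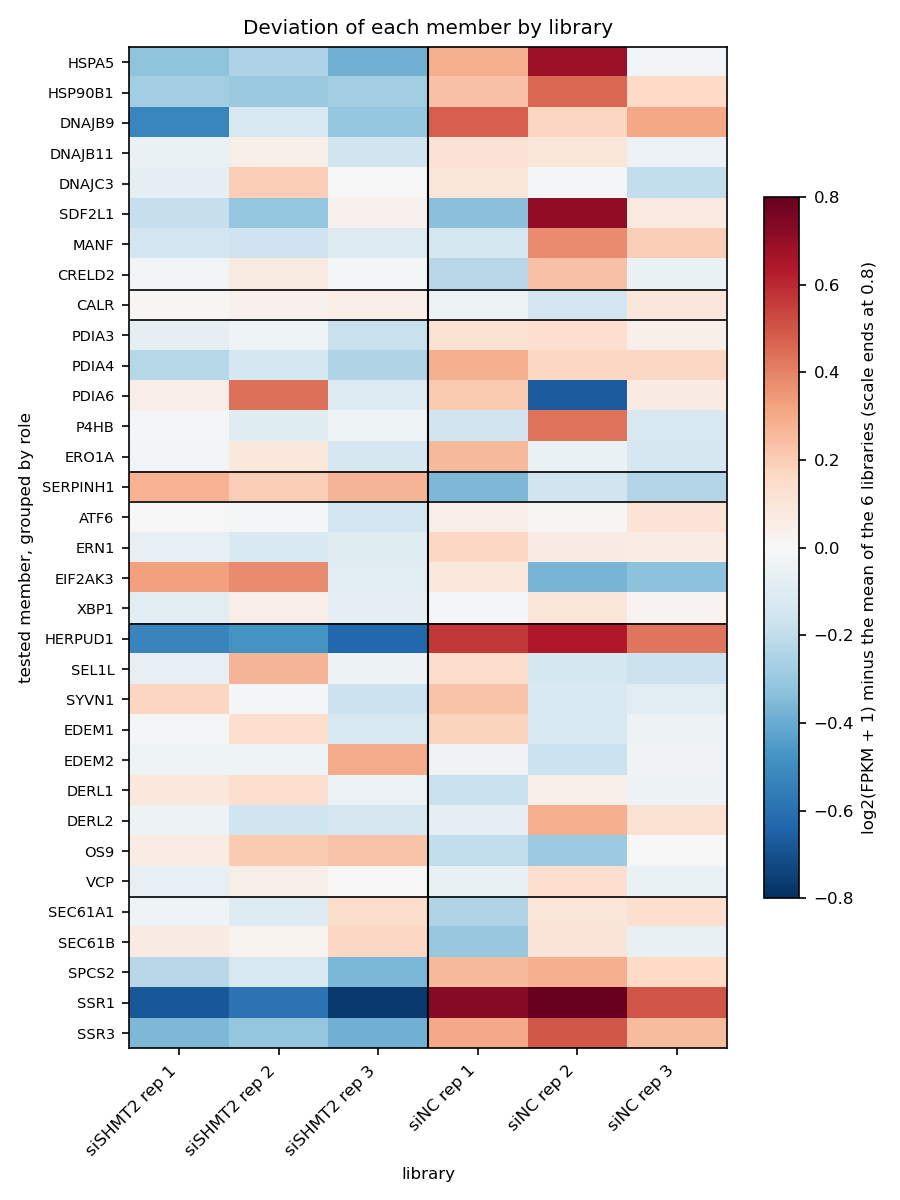
Deviation of each tested member from its mean over the 6 libraries, in log2(FPKM + 1), with siSHMT2 libraries left of the black line, siNC libraries right of it and members grouped by role (red above the mean, blue below). SSR1, HERPUD1 and SSR3 are blue in all 3 siSHMT2 libraries and red in all 3 siNC libraries, while siNC replicate 2 holds the highest value for 14 of the 33 members.

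Members varied among libraries as well as between groups. Of the 33, siNC replicate 2 had the highest of the 6 values for 14 members and the lowest for 5, and siSHMT2 replicate 3 had the lowest for 12 members and the highest for 4. The total that the authors scaled siNC replicate 2 by was 0.957 times its recovered reads, while that of the other libraries was 1.02 to 1.13 times theirs. A smaller total raises every FPKM of a library alike. With FPKM from plain read sums, 4 members were called lower and 1 higher, beside 7.06% and 7.33% of all genes.

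In ER-associated degradation 1 of 9 members was called, lower (11.1%, beside 9.85% of all genes called lower). HERPUD1 (ENSG00000051108, chromosome 16, 56932142 to 56944864) encodes a membrane protein that assembles the HRD1 ubiquitin ligase complex and is strongly induced by ER stress. It had 3.97, 4.13 and 3.64 FPKM in the siSHMT2 libraries (322, 347 and 291 reads), against 9.60, 10.1 and 8.62 FPKM in the siNC libraries (850, 744 and 687 reads). Every siSHMT2 value was under every siNC value by a wide margin, and the siSHMT2 mean was 0.414 times the siNC mean. HERPUD1 fell by 1.09 on the log2 scale (SE 0.0986, 95% interval -1.32 to -0.86, limma adjusted p = 0.000552). It was called under all 14 alternatives run, with log2 differences of -1.25 to -0.99.

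The ligase that HERPUD1 serves was near 0 difference. SYVN1 (HRD1 itself) had 12.2, 10.6 and 9.36 FPKM in the siSHMT2 libraries, against 12.7, 9.75 and 9.96 FPKM in the siNC libraries (log2 difference -0.01, 95% interval -0.32 to 0.31), and its adaptor SEL1L differed by 0.12. SYVN1 overlaps FAU on the same strand, a gene with a mean of 385 FPKM, and MRPL49 on the opposite strand, with a mean of 31.5 FPKM. Whether counting used strand, which bears on MRPL49 and not on FAU, was not given in the sources used here. EDEM1 and EDEM2, which trim mannose from misfolded glycoproteins, differed by -0.003 and 0.15, and DERL1 and DERL2, the derlins of the retrotranslocation complex, by 0.11 and -0.22. VCP, the ATPase that extracts proteins from the membrane, averaged 90.5 ± 3.40 FPKM in siSHMT2 and 91.5 ± 7.09 FPKM in siNC (SD, n = 3 each). OS9, the lectin that brings trimmed glycoproteins to the ligase, had 22.3, 24.8 and 25.3 FPKM in the siSHMT2 libraries, against 18.5, 17.3 and 21.3 FPKM in the siNC libraries. Its siSHMT2 libraries all lay above siNC, but it was not called (log2 difference 0.33, limma adjusted p = 0.0904).

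Of 19 further ERAD genes tested, 3 were lower and 1 higher, beside 9.85% and 6.07% of all genes. FAF2, a VCP recruiter on the ER membrane, averaged 6.58 ± 0.343 FPKM in siSHMT2 and 11.3 ± 0.886 FPKM in siNC (SD, n = 3 each) and fell by 0.70 on the log2 scale (limma adjusted p = 0.00312). UBE2J1, the conjugating enzyme that works with HRD1, fell by 0.47 (0.0163) and UBE2G2, another ubiquitin-conjugating enzyme of ERAD, rose by 0.41 (0.0408). UBE2J1 lost its call without siSHMT2 replicate 1, 2 or 3 (limma adjusted p = 0.0954, 0.0709 and 0.0760, log2 differences -0.46, -0.48 and -0.48), after rescaling to TPM (0.122), with plain read sums (0.0647) or with voom (0.0570). UBE2G2 lost its call without siSHMT2 replicate 1, 2 or 3 (0.0954, 0.152 and 0.107, log2 differences 0.46, 0.33 and 0.44), without siNC replicate 2 or 3 (0.0706 and 0.0739, 0.35 and 0.44), with no filter on low values (0.1002), after rescaling to TPM (0.0874) or with plain read sums (0.0569).

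Of the 5 members that serve protein entry into the ER, 3 were called, all lower (60%, beside 9.85% of all genes called lower). SSR1 (ENSG00000124783, chromosome 6, 7268306 to 7347446) encodes the alpha subunit of the translocon-associated protein complex (TRAP), which sits beside SEC61 and helps some signal peptides open the channel. It had 4.01, 4.33 and 3.71 FPKM in the siSHMT2 libraries (730, 815 and 665 reads), against 12.3, 13.1 and 10.4 FPKM in the siNC libraries (2441, 2152 and 1853 reads). This was the widest separation among the members, with a siSHMT2 mean 0.337 times the siNC mean. SSR1 fell by 1.36 (SE 0.112, 95% interval -1.62 to -1.10, limma adjusted p = 0.000393) and was called under all 14 alternatives. A processed pseudogene, AL139095.2, lies within the gene on the same strand with a mean of 9.70 FPKM of its own.

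SSR3 (ENSG00000114850, chromosome 3, 156540140 to 156555184), the gamma subunit of the same complex, had 72.5, 75.03 and 71.1 FPKM in the siSHMT2 libraries, against 115, 132 and 111 FPKM in the siNC libraries. All siSHMT2 libraries lay close together and below siNC. SSR3 fell by 0.70 (SE 0.117, limma adjusted p = 0.00679) and was also called under all 14 alternatives, where its adjusted p reached 0.0498 at most. The other subunits of the complex, SSR2 and SSR4, differed by -0.17 and -0.33 and were not called, and SSR4 was called lower without siNC replicate 1 (limma adjusted p = 0.0386, log2 difference -0.60). SSR4 had 68.9, 56.5 and 73.9 FPKM in the siSHMT2 libraries, against 57.0, 109.9 and 91.5 FPKM in the siNC libraries, so siNC replicate 1 was the lowest of its group.

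SPCS2, an accessory subunit of the signal peptidase, had 24.2, 26.0 and 21.9 FPKM in the siSHMT2 libraries, against 34.2, 35.1 and 31.9 FPKM in the siNC libraries. The groups lay apart, and SPCS2 (ENSG00000118363, chromosome 11, 74949247 to 74979033) fell by 0.48 (SE 0.107, limma adjusted p = 0.0228). The call was lost after rescaling to TPM (limma adjusted p = 0.118), with plain read sums (0.0617), with voom (0.0554) and without siSHMT2 replicate 1, 2 or 3 (0.106, 0.0552 and 0.117), at log2 differences of -0.53 to -0.39. It was also lost with the replicate number as a block (0.0614). SEC61A1, the pore of the channel, had 158, 150.2 and 178 FPKM in the siSHMT2 libraries, against 137, 173 and 177 FPKM in the siNC libraries, a log2 difference of 0.004 (95% interval -0.34 to 0.35). SEC61B, the tail-anchored subunit of the channel, differed by 0.17 (95% interval -0.15 to 0.50).

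Among 20 further genes for entry into the ER, 2 were lower and 2 higher, near the 9.85% and 6.07% of all genes. TRAM1, a membrane protein that contacts nascent chains beside the channel, had 4.80, 4.50 and 5.37 FPKM in the siSHMT2 libraries, against 22.9, 15.5 and 21.1 FPKM in the siNC libraries. It fell by 1.81 (SE 0.151, limma adjusted p = 0.000419), more than any member. SEC62, which aids entry of short and weakly signalled proteins and is also an ER-phagy receptor, fell by 0.60 (limma adjusted p = 0.00512) and was not called after rescaling to TPM (0.0545, log2 difference -0.58). SEC11C, a catalytic subunit of the signal peptidase, rose by 0.54 (0.0326) and SRPRA, the alpha subunit of the signal recognition particle receptor, rose by 0.46 (0.0177). The other tested subunits of the signal peptidase, SPCS1, SPCS3 and SEC11A, were not called at log2 differences of 0.36, -0.31 and 0.24. SEC11C lost its call without siSHMT2 replicate 1, 2 or 3 (limma adjusted p = 0.0945, 0.0880 and 0.124), without siNC replicate 1 or 2 (0.0622 and 0.0639) or with no filter on low values (0.103), at log2 differences of 0.46 to 0.58. SRPRA also lost its call without siSHMT2 replicate 1, 2 or 3 (limma adjusted p = 0.104, 0.0895 and 0.0668), at log2 differences of 0.43 to 0.49. SPCS3 was called lower without siNC replicate 2 (0.0459, log2 difference -0.33).

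**Figure D4:**
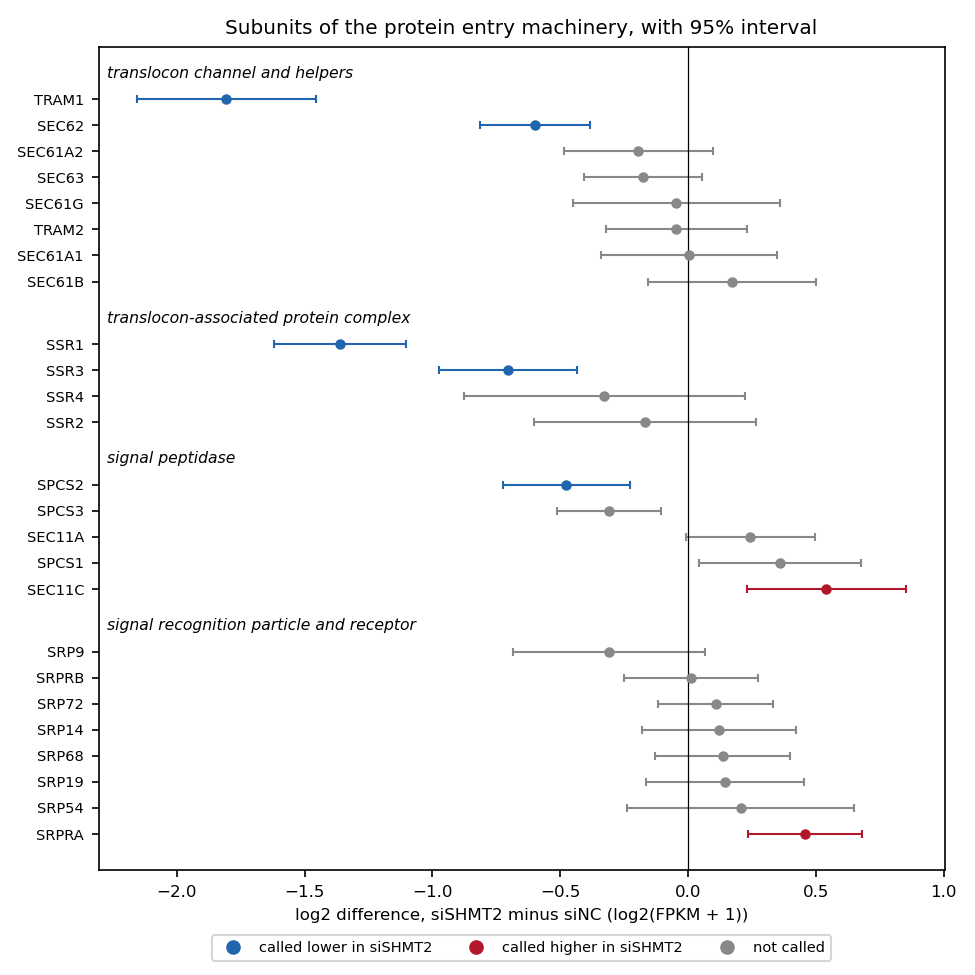
Log2 difference (siSHMT2 minus siNC, on log2(FPKM + 1)) with the 95% interval from limma for tested subunits of the ER entry machinery, grouped by complex, with members and other pathway genes together. TRAM1, SSR1, SSR3, SEC62 and SPCS2 were called lower (blue), SEC11C and SRPRA higher (red), and SEC61A1, the channel pore, lies at 0.004.

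Other steps of glycoprotein handling were called at shares near the 15.9% of all genes, 14.3% in glucose trimming and refolding and 18.2% in glycan attachment. GANAB, the catalytic subunit of glucosidase II, which trims glucose so that lectin chaperones can bind and release glycoproteins, had 125, 124 and 120.5 FPKM in the siSHMT2 libraries, against 36.0, 36.6 and 37.9 FPKM in the siNC libraries. It rose by 1.72 (SE 0.101, limma adjusted p = 0.000122), the largest difference in either direction but for TRAM1 among members and pathway genes together. GANAB was the 1 of 7 tested genes called in glucose trimming and refolding, beside 6.07% of all genes called higher. Its partner PRKCSH, the beta subunit of the same enzyme, differed by -0.14. In the oligosaccharyltransferase, which attaches glycans to new proteins, 2 of 11 were lower, beside 9.85% of all genes. TUSC3, an oxidoreductase subunit, fell by 0.95 (limma adjusted p = 0.00311) and the ribophorin RPN1 by 0.46 (0.0409). RPN1 lost its call without siSHMT2 replicate 1, 2 or 3 or siNC replicate 3 (limma adjusted p = 0.170, 0.137, 0.147 and 0.0589, log2 differences -0.45, -0.46, -0.46 and -0.51), with no filter (0.0778) or after rescaling to TPM (0.0720). By limma and by voom, 0 of 16 further folding enzymes and cochaperones were called, with log2 differences of -0.35 to 0.38, and 0 of 7 ER-phagy receptors. An unadjusted limma p under 0.05 was reached by 3 of the former and 2 of the receptors, beside 30.3% of all genes. Of these receptors, RETREG1 was called lower without siNC replicate 3 (0.0202, log2 difference -0.71) and ATL3 without siNC replicate 2 (0.00914, log2 difference -0.55). In all, 96 of 108 further pathway genes in the table were tested, and 5 were higher (5.21%, beside 6.07% of all genes) and 7 lower (7.29%, beside 9.85%).

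Members with one of the promoter elements included called and uncalled genes. Of the 6 tested members with ERSE, 1 (HSP90B1) was called lower, and their log2 differences ran from -0.64 for HSPA5 to 0.26 for PDIA6. Of the 2 tested members with ERSE-II, HERPUD1 was lower, and SDF2L1 was not called at -0.30. Of the 2 with UPRE, SSR3 was lower, and VCP was not called at -0.01. These counts are too small to compare shares.

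The words GACTTTA and ACTTTAA were counted in the 3′ untranslated region (3′ UTR) of each member. They are the 7-base words that an earlier look at these same log2 differences picked as going most strongly with lower values, and the counts below are a description of that choice with no test. Of the 7 members called lower, 3 held either word (SSR1, HERPUD1 and DNAJB9), as did 2 of 25 not called (ATF6 and ERO1A), and SERPINH1 held neither. The 30 bases around each site in the 3 lower members are shown because these members include those with the largest falls. Capitals mark the word or the union of both, positions are counted from 1 at the start of the 3′ UTR of the GENCODE 29 transcript, and the GRCh38 intervals are chr6:7289195-7289224 and chr6:7287626-7287655 (minus strand), chr16:56943788-56943817, and chr7:108573443-108573472 and chr7:108573663-108573692 (plus strand).
SSR1, 3′ UTR position 651: aaatttctgctGACTTTAAtatatgaaacc
SSR1, 3′ UTR position 2220: atatgtaaaatGACTTTAAggatcttgtgt
HERPUD1, 3′ UTR position 509: tgcagtgctttACTTTAAactaaggggaac
DNAJB9, 3′ UTR position 101: tgcatgatttcACTTTAAacaatttgatat
DNAJB9, 3′ UTR position 321: tacctgattaaACTTTAAaagttaattgta
SSR1 held both words as overlapping letters at 2 sites in a 3′ UTR of 8721 bases, while HERPUD1 and DNAJB9 held ACTTTAA once and at 2 sites in 1573 and 1497 bases. The 4 lower members without a word (SSR3, HSP90B1, SPCS2 and PDIA4) had log2 differences of -0.70, -0.57, -0.48 and -0.41, and HSPA5 held none. ERO1A, with words at 3 sites in 3654 bases, and ATF6, with 1 site in 5416 bases, stood at -0.05 and -0.11.

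Among the further pathway genes, all 7 called lower (TRAM1, TUSC3, FAF2, SEC62, UBE2J1 and RPN1 among them) held either word, against 0 of 5 called higher and 21 of 84 not called. Over all searched genes, 531 of 954 called lower (55.7%), 57 of 587 called higher (9.71%) and 1530 of 7737 not called (19.8%) held one. The 3′ UTRs of these groups also differed in length and base content, with median lengths of 1656.5 bases (called lower), 1298 bases (called higher) and 998 bases (not called). Their median GC contents were 37.7%, 47.9% and 43.2% in the same order. Short matches between the guide strand of an siRNA and 3′ UTRs are a known route by which siRNAs lower transcripts other than their target. Neither siRNA sequence was available among the labels used here, and the part of such matches in the differences above was not tested.

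**Figure D5:**
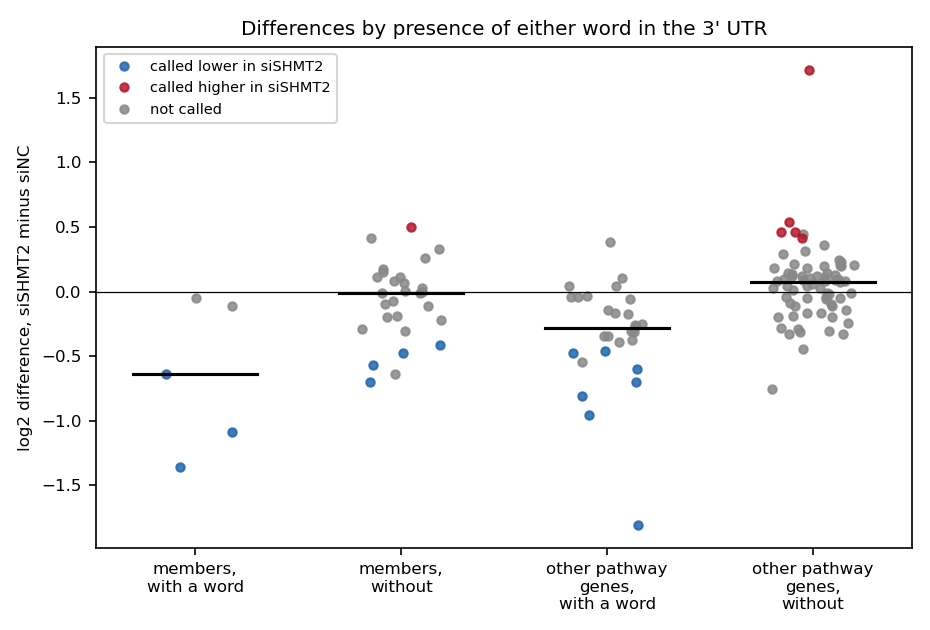
Log2 difference (siSHMT2 minus siNC, on log2(FPKM + 1)) of tested members and other pathway genes with and without either 7-base word in the 3′ UTR, each point a gene and each bar a group median. The medians were -0.64 for 5 members with a word and -0.01 for 28 without, and -0.29 for 28 other pathway genes with a word and 0.08 for 68 without.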

How the data were processed

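The authors deposited 1 table of FPKM values with gene coordinates and lengths. The submitters' processing notes name hg18, HISAT2 2.0.5 and featureCounts 1.5.0-p3, but 99.9% of 58516 shared gene identifiers overlapped their GENCODE release 29 (GRCh38) position, so coordinates are given as in the table and read as GRCh38. Strand settings of the counting were not given in the sources used here. In each library 100% of the deposited FPKM values above 0, times gene length, were whole multiples of 1 step (within 0.02), which gave back whole reads.

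All genes whose mean FPKM reached 1 were fitted on log2(FPKM + 1) in R 4.3.3 by limma 3.58.1, variances moderated along an intensity trend, siSHMT2 minus siNC, and adjusted by Benjamini-Hochberg over all genes tested at 0.05. Such differences understate the change of low genes. The fit was tested on simulated data with the same dispersion in both groups, unlike these libraries. It called 18.8% of simulated 1.5-fold changes, 86.0% of 2-fold changes and 0.101% of unchanged genes. FPKM is not a count, so voom on recovered reads was an alternative only. The other alternatives, 14 in all, covered the pseudocount, the filter, TPM and plain-sum scaling, library weights, the replicate number as a block, and leaving out each library. Same-numbered libraries did not all deviate together, but with 3 libraries a group this cannot settle whether the replicate numbers mark pairs.

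All 35 members are named, with called genes of each further pathway list (up to 6 by smallest adjusted p) and ATF4, DDIT3, PPP1R15A, ATF6B, MBTPS1 and MBTPS2. CHAC1, TRIB3, EIF2S1, TRAF2, SSR2, SSR4, SPCS1, SPCS3, SEC11A, PRKCSH, RETREG1 and ATL3 were added after their values were seen. The members and lists were chosen with earlier results of these data known, so no list was tested. Of the called pathway genes, 1 is counted but not reported here. MARCHF6, a further ERAD gene, had no row under that symbol. Promoters are from RefSeq (33 of 35 members matched). For each gene the GENCODE release 29 protein-coding transcript with the longest 3′ UTR was used, principal transcripts being preferred where a gene had any. The chosen 3′ UTR was searched if it had at least 50 bases. Python 3.11.15 with pandas 2.3.3 was used.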

Additional observations from a re-analysis of the deposited data

How the results depend on the processing

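SSR1, HERPUD1 and SSR3 kept their direction and call under all 14 alternatives, SERPINH1 under 10, HSP90B1 under 9, DNAJB9 and SPCS2 under 7 and PDIA4 under 6. No called member changed sign. Of 33 tested members, 4 were called lower after rescaling to TPM, beside 5.71% of all genes, and 4 with plain read sums, beside 7.06%. Voom called 5 lower, beside 7.76%, and array weights 9, beside 18.2%. When each library was left out, 3 to 8 were called lower, beside 4.60% to 10.4% of all genes. Members called higher numbered 2 with array weights, beside 16.8% of all genes. They numbered 0 to 1 when each library was left out, beside 2.11% to 6.71%. The members' median was 0.015 after rescaling to TPM, -0.00068 with plain read sums and -0.00054 with voom. Over all genes, 603 were lower and 333 higher with no filter on low values, 618 lower at a mean FPKM of at least 5, 620 lower and 686 higher after rescaling to TPM, 767 lower and 796 higher with plain read sums, 843 lower and 904 higher with voom, 1976 lower and 1827 higher with array weights, and 500 to 1132 lower and 229 to 729 higher when each library was left out. The causes of these shifts were not tested.

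Same-numbered libraries of the groups had correlations of deviations of -0.02, -0.35 and 0.24, and other pairs ran from -0.48 to 0.50. With 3 libraries a group these values cannot settle whether the replicate numbers mark pairs. The changes of call given above for further pathway genes leave the replicate block out. With the replicate block, 3 members were lower (SSR1, HERPUD1 and SSR3) and 0 higher, beside 6.41% and 3.44% of all genes. Over all genes, 696 were lower and 374 higher. The limma adjusted p with this block was 0.0745 for HSP90B1, 0.0538 for DNAJB9, 0.119 for PDIA4, 0.0614 for SPCS2 and 0.0728 for SERPINH1. With 3 libraries a group, every called member with a difference smaller than that of SSR3 lost its call without at least 1 siSHMT2 library, and the low read numbers of EIF2AK3 (47 to 152) and ERN1 (169 to 263) limit what could be seen in them.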
